A study of Mus musculus with 6 samples.

Results

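The genes described here encode RNA polymerase I, RNA polymerase III, the subunits they share, and the factors that place them on their templates. They were chosen by name from the 19233 genes of the deposited table: every gene whose symbol begins with Polr1, Polr3 or Gtf3c, and a fixed list of further subunits and factors. The rule found 41 genes, of which 13 belong to the Pol I machinery, 7 are shared subunits and 21 belong to the Pol III machinery. The rule itself uses no expression value, although it was written with results of these data known. RNA was sequenced from polysome fractions of RAW264.7 cells, a mouse macrophage-like line titled M2, in 6 libraries. BMH-21 (500 nM) was present for the last 24 h of culture in 3 of them, from 24 h after cells were polarized, and the other 3 received the DMSO vehicle. The polarizing agent of the line is not stated, because the treatment text names primary macrophages given either IL-4 or interferon gamma with LPS. The question was how this Pol I inhibitor alters the mRNAs on polysomes, here those of its own target enzyme and of the sister enzyme.

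Pol I transcribes the precursor of the large ribosomal RNAs in the nucleolus, and Pol III makes tRNAs, the small ribosomal RNA encoded outside that precursor, and other short noncoding RNAs. Each enzyme has its own catalytic pair of large subunits and its own stalk, while Polr1c and Polr1d form an assembly platform common to both and a further set of small subunits serves Pol II as well. BMH-21 is known to bind GC-rich DNA, to block Pol I and to lead to loss of the Polr1a protein. Protein was not measured here. A polysome value reflects both the amount of an mRNA and the share of it carrying several ribosomes, and without unfractionated RNA these were not separated.

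Values were read as FPKM, a unit that corrects fragment numbers for transcript length and sequencing depth. Neither the unit nor the transcript lengths used are stated, so comparisons of level between genes rest on that reading. The implied depth ran from 18770000 to 22560000 reads with BMH-21 and from 21610000 to 24070000 with DMSO. All 10 macrophage markers were expressed, and the fibroblast, lymphoid and endothelial lists each summed to under 1 FPKM in every library. The 5 epithelial markers (Krt8, Krt18, Krt19, Epcam, Cdh1) summed to 0.00 and 0.088 FPKM in DMSO replicates 1 and 2, with 5 and 3 of them at 0, but to 9.73 in DMSO replicate 3 and to 10.9 to 14.2 in the BMH-21 libraries. Across the table, 29 genes were under 0.1 FPKM in DMSO replicates 1 and 2 and over 0.3 in the other 4 libraries, 4 genes showed the reverse, and neither pattern occurred when DMSO replicate 1 or 2 took the place of replicate 3. These trace transcripts were noticed after the values were seen. With DMSO replicate 3 as the only DMSO library, 6 members were called higher, beside 16.3% of all genes, and 19 lower, beside 51.2%. In that fit the lone DMSO library was assumed to vary like the BMH-21 libraries, which alone gave the spread between replicates. Without that library 6 were called higher, beside 19.4% of all genes, and 20 lower, beside 54.8%. The labels do not say that replicates were separate cultures, and each p-value below therefore rests on library-to-library spread that may be technical.

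Of the 41 members, 37 reached 1 FPKM in at least 3 libraries and were tested: 12 of the Pol I machinery, all 7 shared subunits and 18 of the Pol III machinery. Taf1c, Polr3a, Gtf3c1 and Gtf3c3 stayed near or below that level and were not tested. Among tested members 6 rose and 22 fell in BMH-21 (limma on log2(FPKM + 1), Benjamini-Hochberg adjusted p under 0.05 over 9748 genes), and 9 did not pass. These are shares of 16.2% and 59.5%, against 19.9% and 58.4% of all tested genes, so over the members as a whole the counts lay near the background. The parts differed in their counts, which moved with the scaling as given below. In the Pol I machinery 0 members rose, 9 fell (75.0%) and 3 did not pass. Polr1b is among the 9 and was tested only because of its DMSO values; without it 8 of 11 fell (72.7%). Among shared subunits 4 rose (57.1%), 2 fell and 1 did not pass. In the Pol III machinery 2 rose, 11 fell (61.1%) and 5 did not pass. The median change was -0.43 for Pol I, 0.24 for the shared subunits and -0.28 for Pol III on the log2 scale, where the median of all tested genes was -0.23. Relative to that median the parts stood at -0.20, 0.47 and -0.04, and with DMSO replicate 3 as the only DMSO library at -0.085, 0.46 and 0.011. With no filter on low values they stood at -0.33, 0.28 and -0.23. Groups did not overlap for 7 higher and 25 lower members, beside 20.3% and 59.5% of all tested genes, and 5 members overlapped.

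**Figure D1:**
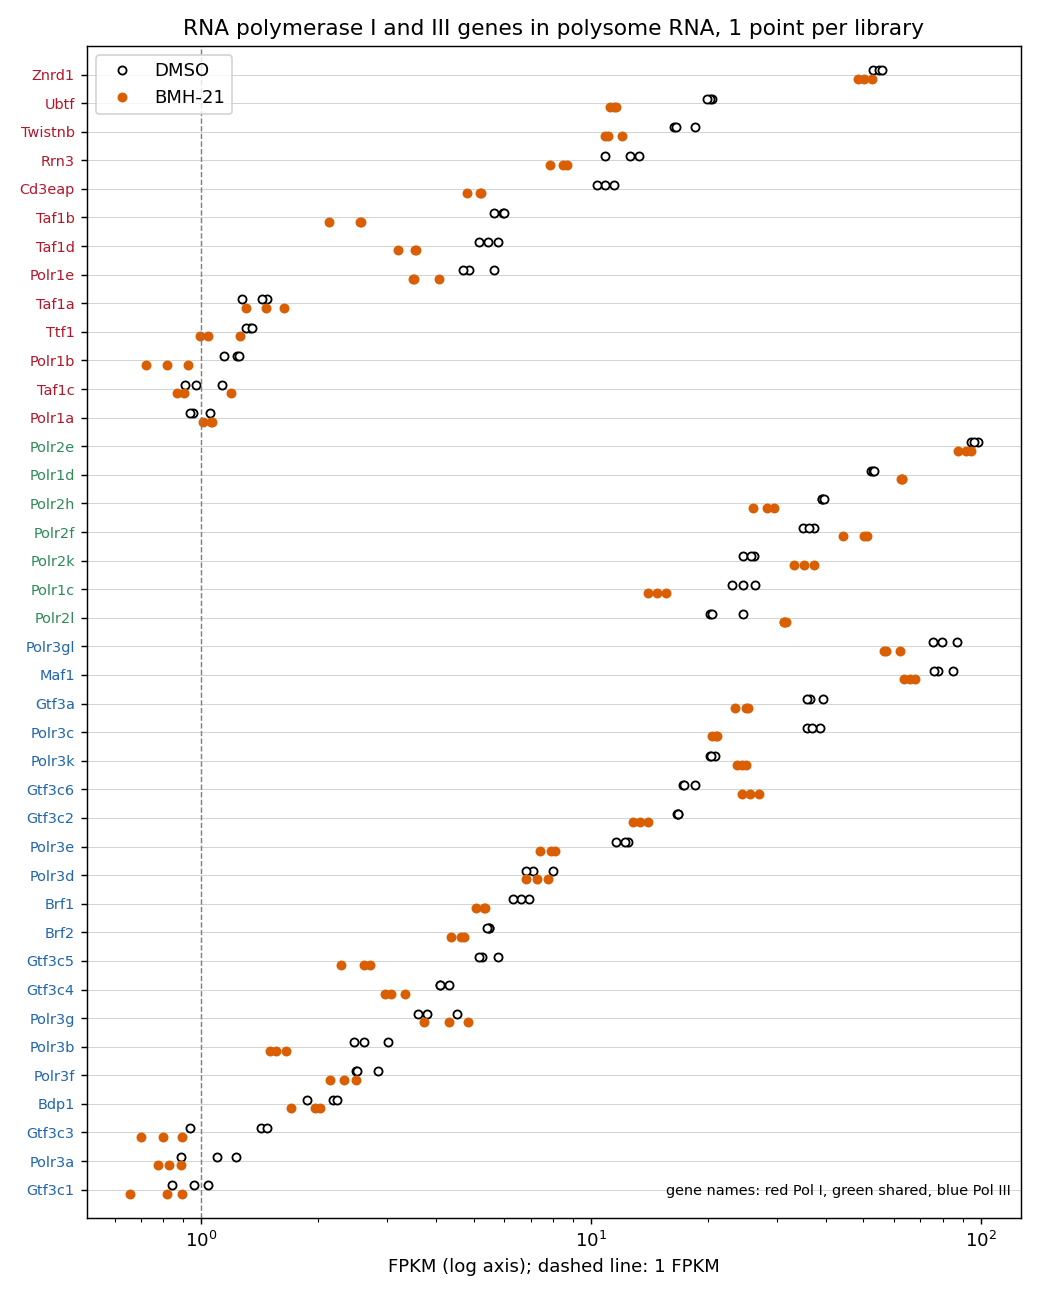
FPKM of the members named in the text in each library on a log axis, with open points for DMSO and filled points for BMH-21, grouped as Pol I (red names), shared (green) and Pol III (blue). Levels ran from 0.948 (Gtf3c1) to 96.2 FPKM (Polr2e) in DMSO, and the points of Cd3eap, Taf1b, Ubtf, Polr3c and Gtf3c5 moved far to the left while those of Polr2l, Polr2k and Gtf3c6 moved right.

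How the values were scaled between libraries mattered for the smaller changes. Scaling by median ratios raised the all-gene median by 0.24, upper-quartile scaling raised it by 0.20 and quantile normalization by 0.24. Making column totals equal lowered it, from -0.23 to -0.33. With equal column totals 6 members were called higher and 26 lower, beside 1389 and 6623 of 9748 genes. Under median ratios 13 members were called higher, beside 38.2% of all genes, and 14 lower, beside 35.3%. Upper-quartile scaling gave 13 higher (34.4% of all genes) and 17 lower (39.8%), and quantile normalization 14 higher (36.1%) and 15 lower (35.9%). By part, median ratios gave 3 higher and 6 lower of 12 for Pol I, 5 and 2 of 7 shared, and 5 and 6 of 18 for Pol III. Upper quartiles gave 3 and 8, 5 and 2, and 5 and 7 in that order. Quantile normalization gave 2 and 6, 4 and 2, and 8 and 7. Equal column totals gave 0 and 10, 4 and 3, and 2 and 13. The 14 that fell under median ratios also fell under the other 3 scalings tried: Ubtf, Cd3eap, Taf1b, Taf1d, Rrn3 and Twistnb of Pol I, the shared Polr1c and Polr2h, and Polr3b, Polr3c, Polr3e, Polr3gl, Gtf3c5 and Gtf3a of Pol III. All 6 rises (Polr1d, Polr2f, Polr2k, Polr2l, Polr3k and Gtf3c6) likewise passed under each of the 4 scalings. Median-ratio, upper-quartile and quantile scaling raised the all-gene median, so a rise could seldom lose its call there. Equal column totals alone worked against the rises, and in favour of the falls. The share of all genes called alike under all 4 scalings was not counted. With no filter on low values all 41 members entered, 6 were called higher and 21 lower, beside 10.8% and 33.5% of the whole table. Only 50.7% of that table passed the main filter, against 37 of the 41 members, so these shares are over unlike sets.

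**Figure D2:**
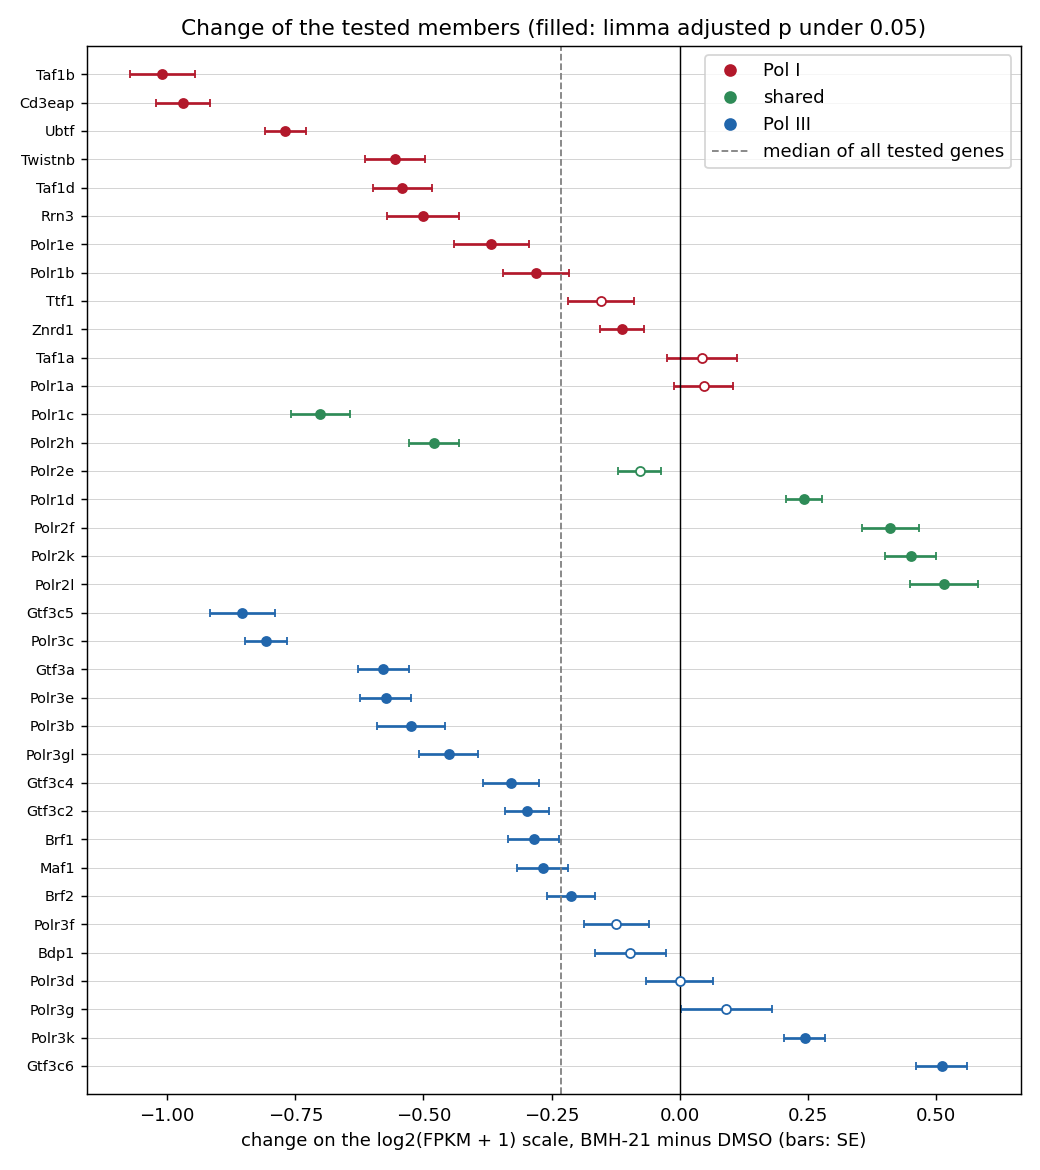
Change of each tested member named in the text, in BMH-21 relative to DMSO on the log2(FPKM + 1) scale with its SE, filled where the adjusted p passed 0.05. The dashed line marks the median of all tested genes (-0.23). Pol I members lie mostly left of it, from -1.01 to 0.05, and 5 of the 7 shared subunits lie right of it.

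Promoter sequences are shown for 4 members whose windows hold the E-box CACGTG: the 2 Pol I genes with 2 copies of it, the 1 such gene that rose, and a Pol III subunit gene that carries a Pol III template beside its start. They were picked with these matches and the changes known and do not represent the 27 windows without the motif. RefSeq promoter windows on GRCm38.p6, from 250 bases before to 50 after an annotated start, matched 34 of the 41 members. Brf1, Brf2, Maf1, Polr2k, Polr3a and Polr3d were among those with none. Cd3eap lies at chr7:19359434-19359733 on the minus strand and Rrn3 at chr16:13780449-13780748 on the plus strand, both of which fell. Polr3e, which fell, lies at chr7:120917528-120917827 on the plus strand, and Gtf3c6, which rose, at chr10:40257663-40257962 on the minus strand, a RefSeq start 396 bases from the GENCODE gene start. Each is read 5′ to 3′ on the gene's strand, and capitals mark matches to CACGTG (the E-box bound by Myc and Usf factors), CCGGAAG (a core of ETS-factor sites), AAGATGGC (YY1) and GTTCGANNC (the B box inside tRNA genes), on either strand.
Cd3eap: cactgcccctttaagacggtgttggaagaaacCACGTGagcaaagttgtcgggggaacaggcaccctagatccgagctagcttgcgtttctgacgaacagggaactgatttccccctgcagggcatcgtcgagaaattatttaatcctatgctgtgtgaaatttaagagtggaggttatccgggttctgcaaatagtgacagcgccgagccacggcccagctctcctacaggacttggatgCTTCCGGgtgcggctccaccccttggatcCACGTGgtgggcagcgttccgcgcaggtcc
Rrn3: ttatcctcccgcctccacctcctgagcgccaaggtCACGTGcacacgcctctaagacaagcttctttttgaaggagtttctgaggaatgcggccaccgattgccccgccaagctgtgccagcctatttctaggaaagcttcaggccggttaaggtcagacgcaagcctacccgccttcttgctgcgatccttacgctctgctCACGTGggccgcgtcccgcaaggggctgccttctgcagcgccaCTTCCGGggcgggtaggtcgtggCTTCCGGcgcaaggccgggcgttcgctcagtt
Polr3e: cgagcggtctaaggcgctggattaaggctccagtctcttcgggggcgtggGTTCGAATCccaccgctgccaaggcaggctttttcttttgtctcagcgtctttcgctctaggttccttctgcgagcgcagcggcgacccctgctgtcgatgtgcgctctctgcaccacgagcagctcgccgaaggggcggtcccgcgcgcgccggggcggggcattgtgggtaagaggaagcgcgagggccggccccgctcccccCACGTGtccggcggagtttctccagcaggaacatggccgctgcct
Gtf3c6: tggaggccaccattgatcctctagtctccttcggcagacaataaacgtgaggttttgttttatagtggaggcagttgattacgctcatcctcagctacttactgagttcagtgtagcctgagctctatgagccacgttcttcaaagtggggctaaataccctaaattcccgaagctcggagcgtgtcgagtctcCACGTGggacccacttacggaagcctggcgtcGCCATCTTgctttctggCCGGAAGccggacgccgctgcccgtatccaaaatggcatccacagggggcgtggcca

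Cd3eap and Rrn3 each hold 2 copies of CACGTG, and Polr3e and Gtf3c6 hold 1. In all, 7 of the 34 member windows (20.6%) held this motif, against 11.0% of the windows of 7625 tested genes and 7.2% of all 32851 windows. Of those 7 members Cd3eap, Rrn3, Polr2h, Polr3c, Polr3e and Polr3gl fell and Gtf3c6 rose. Of the 24 tested members whose window lacked the motif 13 fell and 4 rose, and of all tested genes 58.4% fell and 19.9% rose. A link between the motif and the change was not tested. The ETS core was found in 16 members (47.1%), against 21.5% of tested genes and 8.9% of all windows. In the 14 of those that were tested 8 fell, 2 rose and 4 did not pass, and in the 17 tested without it 11 fell, 3 rose and 3 did not pass. Members with and without the ETS core had the same median change to 2 decimals, -0.33. The YY1 motif was present in Gtf3c6 alone. The NRF1 core GCATGCG was in 3 members (8.8%), against 7.3% of tested genes, and CTCGCGAG was in 0, against 2.3%. A B box match stood in Polr1b, Polr3e and Taf1d (8.8%), against 1.4% of tested genes. In Polr3e it lies inside a leucine tRNA gene that RefSeq annotates at chr7:120917517-120917598 (n-TLaag4), so the first bases of that window are tRNA sequence. These matches describe letters in a window, and binding was not measured.

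Among the subunits found only in Pol I, 5 of 6 fell and 0 rose, or 4 of 5 without Polr1b. Of all tested genes 58.4% fell and 19.9% rose, shares to set beside this count and the counts of each complex below. Positions below are gene spans on GRCm38. The deposited values are per gene, and how reads were assigned to exons or transcripts is not given. Cd3eap (chr7:19356014-19359483, minus strand), a subunit of a dimer resembling the Pol II factor TFIIF, was at 10.8, 10.4 and 11.4 FPKM in DMSO and 5.24, 5.19 and 4.80 in BMH-21. Its groups lay far apart, with a change of -0.97 (SE 0.05, adjusted p = 9.32e-08). Polr1e, its partner in that dimer, read 4.86, 5.65 and 4.71 FPKM in DMSO and 3.53, 3.50 and 4.08 in BMH-21, a change of -0.37 (SE 0.07, adjusted p = 0.00095). The lowest DMSO library still exceeded the highest BMH-21 library, although the change was -0.13 (adjusted p = 0.125) under median-ratio scaling and -0.04 (adjusted p = 0.592) under quantile normalization. Twistnb, a stalk subunit, had 16.3, 18.5 and 16.5 FPKM in DMSO against 11.1, 12.0 and 10.8 in BMH-21, again without overlap (change -0.56, SE 0.06, adjusted p = 1.09e-05).

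The catalytic subunits were low in both groups. Polr1a (chr6:71909053-71984935, plus strand), the largest subunit, gave 0.955, 1.06 and 0.934 FPKM in DMSO and 1.06, 1.01 and 1.07 in BMH-21. The groups overlapped, and the change of 0.05 (SE 0.06, adjusted p = 0.478) did not pass. It entered the test through all 3 BMH-21 libraries and 1 DMSO library, and under median-ratio, upper-quartile and quantile scaling it was called higher, by 0.19, 0.17 and 0.34. Polr1b, the second-largest subunit, was at 1.24, 1.25 and 1.14 FPKM in DMSO and 0.927, 0.817 and 0.720 in BMH-21, a change of -0.28 (SE 0.06, adjusted p = 0.00244). It passed the filter only through the DMSO group, where it was high, and without any 1 DMSO library it was no longer tested. The call was lost under median-ratio scaling (-0.13, adjusted p = 0.0842) and quantile normalization (-0.03, adjusted p = 0.725). Znrd1, the small zinc-ribbon subunit involved in RNA cleavage, was the most abundant Pol I gene, at 52.9, 54.7 and 55.9 FPKM in DMSO and 50.1, 48.5 and 52.5 in BMH-21. Its change of -0.11 (adjusted p = 0.0335) just passed, was lost without BMH-21 replicate 1 (adjusted p = 0.0741) or 2 (0.108) and without DMSO replicate 2 (0.0817) or 3 (0.121), and turned to 0.18 and 0.12 under median-ratio and upper-quartile scaling. On a single-transcript estimate, the values of Polr1a rested on 183 to 212 reads, those of Polr1b on 60 to 119 and those of Znrd1 on 698 to 945.

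Initiation factors of Pol I had a lower median change than its own subunits, -0.54 over 5 tested genes against -0.32 over 6, a difference given as a description. Taf1b (chr12:24498359-24558539, plus strand), a member of the promoter-selectivity complex SL1, changed most of all 37 tested members: 5.97, 5.99 and 5.64 FPKM in DMSO and 2.56, 2.57 and 2.12 in BMH-21 (-1.01, SE 0.06, adjusted p = 2.51e-07). Ubtf (chr11:102304560-102319742, minus strand), the HMG-box factor that coats ribosomal DNA, was at 20.4, 20.2 and 19.9 FPKM in DMSO and 11.5, 11.2 and 11.6 in BMH-21. Both groups were tight and well apart (-0.77, SE 0.04, adjusted p = 6.98e-08). Rrn3, which bridges the polymerase to SL1, read 12.6, 13.3 and 10.8 FPKM in DMSO and 8.68, 8.48 and 7.87 in BMH-21 (-0.50, SE 0.07, adjusted p = 8.67e-05), with DMSO replicate 3 the lowest of its group. Taf1d, another SL1 subunit, fell by 0.54 on the log2 scale, from 5.16 to 5.76 FPKM in DMSO to 3.20 to 3.56 in BMH-21. Its exons also hold annotated snoRNAs and it has a near-identical pseudogene (Gm13487, 95.5% over 863 bases), and how reads were divided between them is not given. The same holds for annotated copies of Taf1b (Gm19196, 92.1% over 380 bases, and Gm49665, 90.5% over 242). It also holds for copies of Twistnb (Gm8670, 97.8% over 739 bases) and of Ttf1, described below (Gm14132, 93.7% over 1730).

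Of the other SL1 subunits that the naming rule reaches, Taf1a did not pass and Taf1c was not tested. Taf1a was at 1.28, 1.48 and 1.43 FPKM in DMSO and 1.30, 1.47 and 1.64 in BMH-21, with overlapping groups and a change of 0.04 (SE 0.07, adjusted p = 0.572). It was called higher under median-ratio (0.22), upper-quartile (0.18) and quantile (0.29) scaling. Its level rests on an estimated 36 to 50 reads per library, which gives a counting error of 16.7% at the lowest. Taf1c, at 1.13, 0.968 and 0.912 FPKM in DMSO and 1.19, 0.901 and 0.868 in BMH-21, was not tested, and its exons share 584 bases with Dnaaf1 on the other strand. Ttf1, the factor that terminates Pol I transcription, was at 1.34, 1.31 and 1.35 FPKM in DMSO and 1.04, 0.993 and 1.26 in BMH-21. Its groups did not overlap and the change of -0.15 missed the threshold (adjusted p = 0.051), passing without BMH-21 replicate 3 at -0.21 (adjusted p = 0.016) and with column totals made equal at -0.22, and standing at 0.08 under quantile normalization.

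Shared subunits split by gene. Polr1d (chr5:147077050-147111597, plus strand), a subunit of the platform common to Pol I and Pol III, rose from 52.2, 52.9 and 53.3 FPKM in DMSO to 62.3, 62.7 and 62.8 in BMH-21 (0.24, SE 0.03, adjusted p = 0.000103). Its partner Polr1c (chr17:46243920-46248054, minus strand) fell from 26.4, 23.0 and 24.6 FPKM to 14.8, 14.0 and 15.6 (-0.70, SE 0.06, adjusted p = 1.84e-06). So the 2 genes of that heterodimer moved in opposite directions, each without overlap between groups. Of the 5 subunits that Pol II also uses, 3 rose. Polr2l, with the shortest annotated coding sequence of all members (201 bases), rose from 24.6, 20.2 and 20.5 FPKM to 31.3, 31.2 and 31.7 (0.52, SE 0.07, adjusted p = 4.99e-05). Polr2k rose from 24.6, 26.2 and 25.8 FPKM to 33.3, 35.2 and 37.4 (0.45, SE 0.05, adjusted p = 1.45e-05). Polr2f, an assembly subunit, rose from 37.4, 35.0 and 36.2 FPKM to 44.3, 50.1 and 51.1 (0.41, SE 0.06, adjusted p = 7.16e-05). Every BMH-21 library exceeded every DMSO library for these 3 genes.

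Polr2h went the other way, from 39.2, 39.2 and 39.6 FPKM in DMSO to 26.1, 28.3 and 29.6 in BMH-21 (-0.48, SE 0.05, adjusted p = 7.83e-06). Polr2e, the most abundant member of the whole set, was at 98.5, 94.4 and 95.9 FPKM in DMSO and 91.8, 87.3 and 94.4 in BMH-21. The change of -0.08 did not pass (adjusted p = 0.108), was called lower with column totals made equal (-0.20) and was called higher under median-ratio (0.21) and upper-quartile (0.16) scaling. Near-identical annotated copies exist for Polr2l (Gm10774, Gm13015), Polr2h (Gm7511) and Polr2k (Gm46136), and Polr2f shares 245 exonic bases with an opposite-strand gene, so reads of these genes could have been divided.

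The 10 Pol III core genes included 4 that fell, 1 that rose, 4 that did not pass and 1 that was not tested. Polr3c (chr3:96711490-96727628, minus strand), part of the initiation subcomplex, read 35.9, 38.7 and 36.9 FPKM in DMSO and 21.0, 20.4 and 21.1 in BMH-21 (-0.81, SE 0.04, adjusted p = 6.94e-08), the largest fall of a Pol III subunit. Polr3f, of the same subcomplex, was at 2.50, 2.84 and 2.52 FPKM in DMSO and 2.49, 2.33 and 2.14 in BMH-21, with groups just apart and a change of -0.12 (adjusted p = 0.0963). It was called lower with column totals made equal (-0.21) and higher under quantile normalization (0.18). Polr3e fell from 11.6, 12.4 and 12.3 FPKM to 7.91, 7.38 and 8.09 (-0.57, SE 0.05, adjusted p = 2.69e-06). Polr3d, with which Polr3e pairs, had group means of 7.29 ± 0.61 and 7.29 ± 0.49 FPKM (SD, n = 3 each), a change of 0.00 (SE 0.07, adjusted p = 0.999). Its groups overlapped, and it was called higher under median-ratio (0.26), upper-quartile (0.21) and quantile (0.28) scaling.

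Polr3b, the second-largest subunit, fell from 3.01, 2.61 and 2.47 FPKM to 1.65, 1.56 and 1.5 (-0.52, SE 0.07, adjusted p = 4.23e-05). The largest, Polr3a, was at 1.23, 1.10 and 0.887 FPKM in DMSO and 0.886, 0.829 and 0.775 in BMH-21 and was below the filter. Polr3k, the cleavage subunit related to Znrd1, rose from 20.2, 20.8 and 20.4 FPKM to 23.7, 24.4 and 25.0 (0.24, SE 0.04, adjusted p = 0.000254). Polr3gl (chr3:96577872-96594181, minus strand), the widespread form of the third subunit of the initiation subcomplex, fell from 86.8, 79.4 and 75.4 FPKM to 56.5, 62.0 and 57.3 (-0.45, SE 0.06, adjusted p = 4.25e-05). Polr3g, the alternative form typical of proliferating and undifferentiated cells, was at 3.79, 3.60 and 4.54 FPKM in DMSO and 4.33, 4.83 and 3.74 in BMH-21, with overlap (0.09, SE 0.09, adjusted p = 0.366), and it was called higher under median-ratio (0.33), upper-quartile (0.28) and quantile (0.42) scaling.

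In TFIIIC, the complex that binds internal promoters of tRNA genes, 1 of 4 tested subunits rose and 3 fell. Gtf3c6 (chr10:40247703-40258108, minus strand), its smallest subunit, rose from 17.2, 18.5 and 17.3 FPKM to 24.4, 27.0 and 25.5 (0.51, SE 0.05, adjusted p = 6.36e-06). Gtf3c5 (chr2:28566311-28583751, minus strand), of the same subcomplex, fell from 5.26, 5.16 and 5.77 FPKM to 2.29, 2.62 and 2.72 (-0.85, SE 0.06, adjusted p = 8.89e-07). Gtf3c4 fell from 4.11, 4.32 and 4.11 FPKM to 2.97, 3.07 and 3.33 (-0.33, adjusted p = 0.000255), though the call was lost under median-ratio scaling (-0.10) and quantile normalization (0.00). Gtf3c2 fell from 16.6, 16.8 and 16.7 FPKM to 14.0, 13.3 and 12.8 (-0.30, adjusted p = 0.000121), and its exons share 2556 bases with the same-strand gene Gm29609, so its level is uncertain. Under median-ratio, upper-quartile and quantile scaling its change was -0.02, -0.08 and -0.07 and no longer passed. Gtf3c1, the subunit that contacts the B box, was at 0.843 to 1.04 FPKM in DMSO and 0.656 to 0.895 in BMH-21, and Gtf3c3 at 0.936 to 1.47 and 0.703 to 0.891, both below the filter.

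In TFIIIB, which recruits Pol III to the start site, 2 of the 3 genes that the naming rule reaches fell. Brf1, its usual scaffold, fell from 6.94, 6.60 and 6.33 FPKM to 5.08, 5.35 and 5.33 (-0.28, adjusted p = 0.000423), and the call was lost under median-ratio (-0.03), upper-quartile (-0.08) and quantile (0.03) scaling. Brf2, which replaces it at promoters upstream of the transcribed region, fell from 5.48, 5.47 and 5.42 FPKM to 4.73, 4.64 and 4.37 (-0.21, adjusted p = 0.00215), but was 0.03 and 0.11 higher under median-ratio scaling and quantile normalization and at -0.01 did not pass under upper-quartile scaling. Bdp1 was at 2.18, 2.23 and 1.87 FPKM in DMSO and 1.96, 2.02 and 1.70 in BMH-21, with overlap (-0.10, adjusted p = 0.22), and it was called lower with column totals made equal (-0.18) and higher under quantile normalization (0.19). Gtf3a, which guides Pol III to the ribosomal RNA gene that it transcribes, fell from 39.4, 36.4 and 35.8 FPKM to 25.4, 25.0 and 23.4 (-0.58, SE 0.05, adjusted p = 2.4e-06), and 1505 of its exonic bases overlap Mtif3 on the other strand. Maf1, the repressor of Pol III under stress, fell from 84.8, 77.6 and 75.9 FPKM to 63.6, 67.8 and 65.9 (-0.27, adjusted p = 0.000569), close to the all-gene median, and the call was lost under median-ratio (0.02) and upper-quartile (-0.03) scaling.

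Related subunits of both enzymes were compared as a log2 ratio of (FPKM + 1) within each library, which does not depend on a common scaling except through the added 1. The Znrd1 to Polr3k ratio differed by -0.36, with means of 1.37 in DMSO and 1.02 in BMH-21. In the catalytic pairs the direction was opposite: Polr1a to Polr3a went from a mean of -0.06 to 0.16 and Polr1b to Polr3b from -0.74 to -0.50. Polr1a and Polr3a lay near 1 FPKM (DMSO means 0.98 and 1.07), so the added 1 weighs heavily in their ratio. Polr3a was below the filter, and Polr1b passed it only through DMSO. Between the alternative Pol III forms, Polr3g relative to Polr3gl went from -4.04 ± 0.22 to -3.50 ± 0.11 (SD, n = 3 each). In these 4 pairs the groups did not overlap, and each exact two-sided permutation test gave p = 0.10, the smallest that 3 against 3 libraries allow, and 0.125 after adjustment over 5 pairs. Brf1 to Brf2 differed by -0.07 (exact permutation p = 0.30), with overlapping groups. At this sample number no pair could pass 0.05.

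**Figure D3:**
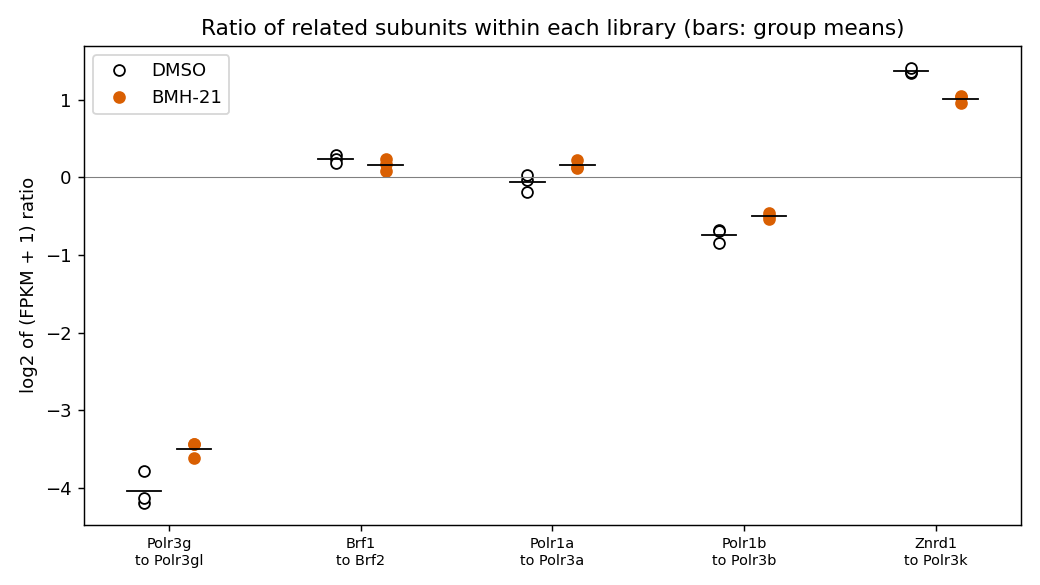
Log2 ratio of (FPKM + 1) between related subunits in each library, with open points for DMSO, filled points for BMH-21 and bars for group means. The Znrd1 to Polr3k mean goes from 1.37 to 1.02, the Polr3g to Polr3gl mean from -4.04 to -3.50, and only the Brf1 to Brf2 points overlap.

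The members that rose encode small proteins. Of 7 tested members with a coding sequence under 500 bases, Polr2l, Polr2k, Polr3k, Polr2f and Polr1d rose and Polr2h and Znrd1 fell, with a median change of 0.24. Among all 874 tested genes that short, 52.3% rose and 23.9% fell, with a median of 0.18. Of the 30 longer members only Gtf3c6 rose and 20 fell, with a median of -0.31. Among all 8347 tested genes of that length 1347 rose and 5265 fell, with a median of -0.27. Across members the change and coding length had a Spearman rho of -0.47 (37 genes) and across all tested genes -0.28 (9221 genes), a description over genes that share the same 6 libraries. Coding length also went with level, at -0.71 over members. With coding length and GC content as fitted terms, a setting added after the data were seen, 2 members were called higher, beside 17.8% of all genes, and 24 lower, beside 60.4%. Gtf3c6 stayed higher in that fit, all 14 members that fell under every scaling stayed lower, Polr2f was at 0.06 without passing, and Polr1d, Polr2k and Polr2l stood at -0.07, -0.02 and -0.02. Polr3k was called lower there, at -0.19 (adjusted p = 0.00107), and Polr1a was called higher, at 0.13 (adjusted p = 0.0424). Why short genes rose was not tested.

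Genes next to this machinery were compared by lists, beside all tested genes, of which 19.9% rose and 58.4% fell. Of 7 Pol II core subunits that Pol I and Pol III lack, 1 rose, 2 fell and 4 did not pass, with a median of 0.04: Polr2c changed by -0.47, Polr2d by 0.22 and Polr2b by -0.16. Of 14 general Pol II initiation factors 2 rose, 8 fell and 4 did not pass, with a median of -0.14, led by Gtf2f1 (-0.71), Gtf2h4 (-0.61) and Ercc2 (-0.52). Gtf2e1, among the 8, is named because it passed the filter only through DMSO. It was at 1.40, 1.42 and 1.34 FPKM there and at 0.856, 0.888 and 0.918 in BMH-21. Of 14 tested among 16 further Pol I and Pol III factors 1 rose, 10 fell and 3 did not pass, with a median of -0.29. Ssb, the La protein that binds the ends of new Pol III transcripts, fell from 37.1, 39.9 and 38.8 FPKM to 13.5, 13.8 and 14.7 (-1.40, SE 0.05, adjusted p = 4.41e-09), more than any member. Tcof1, a nucleolar partner of Ubtf and Pol I, fell from 9.09, 9.12 and 8.75 FPKM to 4.33, 4.13 and 4.12 (-0.94, SE 0.05, adjusted p = 4.74e-08), and Snapc2, of the complex at upstream Pol III promoters, changed by -0.54. Crcp, a Pol III subunit whose symbol the naming rule does not reach, was the 1 that rose, at 0.26 (adjusted p = 0.000607), and was named after its value was seen. Tbp, a subunit of SL1 and TFIIIB that the rule does not reach either, was among the 10 that fell, at -0.29 (adjusted p = 0.000909). It too was named after its value was seen.

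Few products of these polymerases were in the table, and oligo-dT selection does not favour them. Rn7sk, a Pol III transcript that restrains Pol II elongation, was at 14.9, 10.6 and 6.68 FPKM in DMSO and 7.08, 6.29 and 7.12 in BMH-21. The groups overlapped although the change of -0.52 passed (adjusted p = 0.0359). Rn7s1, a gene for the RNA of the signal recognition particle, was at 6.01, 6.40 and 7.39 FPKM in DMSO and 6.98, 2.73 and 3.35 in BMH-21. Its groups also overlapped although its change of -0.58 passed (adjusted p = 0.0355). Rn7s2, a further such gene, was at 1.47, 1.46 and 2.63 FPKM in DMSO and 0.299, 2.73 and 0.0113 in BMH-21. Its change of -0.72 did not pass (adjusted p = 0.116). How reads were divided between Rn7s1 and Rn7s2 is not given. Rmrp was listed at 0 in the 3 DMSO libraries and at 0.379, 0.315 and 0.342 FPKM in BMH-21. It was under 1 FPKM in every library and was not tested, and the reads behind these low values were not estimated. Ribosomal RNA precursor was not analysed here, so the output of Pol I was not measured.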

How the data were processed

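Polysome-fraction RNA of 6 RAW264.7 libraries was compared, 3 with BMH-21 and 3 with DMSO, grouped by title. The members and lists were chosen with earlier results of these data known. The submitters' processing notes list mm10, HISAT2, SAMtools and Trimmomatic 0.38. The authors deposited 1 table whose unit was read as FPKM from its values, while its counting tool, normalising tool and annotation have no mention in the sources used here. Library preparation used oligo-dT beads for all samples per the labels, which name polyA RNA for DMSO replicate 2 and total RNA for the other 5.

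Steps between the low values of 1908 to 2302 genes implied each library's depth, but only 64.6% to 68.1% came within 0.01 of whole reads, too few to recover counts. FPKM are shares of a library, so total RNA per cell is not measured. Log2(FPKM + 1) values of the 9748 genes reaching 1 FPKM in 3 or more libraries entered a limma fit (version 3.58.1, R 4.3.3) that models the trend of variance with intensity, and p-values were adjusted by Benjamini-Hochberg at 0.05. The scale understates changes of low genes. The script was tested on simulated data. Members are named whatever their values, apart from 1 that is counted but not reported here, and in comparison lists the 3 tested genes with the smallest p. Replicate numbers were not used to pair the samples in the main fit. Deviations of same-numbered libraries correlated at -0.11, -0.09 and -0.06, which shows no shared deviation but cannot settle whether they were paired. Libraries within a group correlated at 0.997 or more. Coding length, transcript length, overlaps and positions came from GENCODE M21 on GRCm38, the assembly of mm10, copies from blastn 2.17.0 (90% identity over 200 bases), and promoters from RefSeq. Alternatives covered scaling, pseudocount, filters, the trend, a replicate block, left-out libraries and, added after the data were seen, coding length with GC content, and DMSO replicate 3 alone.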

Additional observations from a re-analysis of the deposited data

How the results depend on the processing

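Medians here are relative to all tested genes. Under median-ratio scaling 14 members were lower and 13 higher (35.3% and 38.2% of all genes). Upper-quartile scaling gave 13 higher and 17 lower (34.4% and 39.8% of all genes), quantile normalization 14 and 15 (36.1% and 35.9%), and the fit with coding length and GC 2 and 24 (17.8% and 60.4%). Equal column totals gave 6 higher and 26 lower, beside 1389 and 6623 of 9748 genes. The shared-subunit median was 0.52 (median ratios), 0.51 (upper quartiles), 0.28 (quantiles), 0.52 (pseudocount 0.1), 0.28 (no filter) and 0.14 (length fit). The Pol III median was -0.0082 (median ratios), 0.011 (quantiles), -0.016 (pseudocount 0.1), -0.23 (no filter), -0.080 (mean of at least 3 FPKM), 0.021 (length fit) and 0.011 (DMSO replicate 3 alone), and ranged from -0.087 to -0.013 with 1 library left out. The Pol I median was -0.33 with no filter, -0.34 with the stricter one and -0.085 with DMSO replicate 3 alone, and ranged from -0.30 to -0.18 with 1 library left out. No filter moved the all-gene median itself to -0.036, and the other causes were not tested.

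Signs turned under median ratios for Bdp1 (0.10), Brf2 (0.034), Maf1 (0.024), Polr2e (0.21), Polr3f (0.086), Ttf1 (0.0080) and Znrd1 (0.18), under upper quartiles for Bdp1 (0.061), Polr2e (0.16), Polr3f (0.045) and Znrd1 (0.12), and under quantiles for Bdp1 (0.19), Brf1 (0.027), Brf2 (0.11), Gtf3c4 (0.0013), Polr3f (0.18) and Ttf1 (0.080). Equal column totals turned Polr1a (-0.015), Polr3d (-0.11), Polr3g (-0.0071) and Taf1a (-0.028). In the length fit Polr1d (-0.074), Polr2k (-0.024), Polr2l (-0.015), Polr3g (-0.073) and Polr3k (-0.19) turned, and with DMSO replicate 3 alone Bdp1 (0.010) and Polr3g (-0.069) did. With 1 library left out Polr3d ranged from -0.043 to 0.059 and Taf1a from -0.0043 to 0.093. The replicate block left 22 members lower and 6 higher and changed no member's call. Depth limits the members near 1 FPKM.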
